A study of Mus musculus with 15 samples.

Results

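The comparison described here set mouse T-ALL cells whose MYC transgene had been shut off for a whole day against the same cells with the transgene on. It rests on 6 of the 15 RNA-seq libraries of the series, chosen by their labels: the 3 libraries labelled MYC on 0 h and the 3 labelled MYC off 24 h. T-ALL is T cell acute lymphoblastic leukemia. The cells came from tumors of EμSRα-tTA/tet-O-MYC mice on the FVB/N background and were grown in culture, so all 15 libraries carry both alleles. In this model the immunoglobulin enhancer and SRα promoter drive the tetracycline transactivator in lymphoid cells, and the transactivator drives a human MYC cDNA until doxycycline stops it. The 24 h libraries were treated with doxycycline, and the paper's methods give a mock treatment with PBS for the MYC on state in general. No library of the series is labelled MYC on at 24 h. Loss of MYC, doxycycline itself and time in culture therefore cannot be told apart in any difference below. All libraries are of 1 genotype, no normal T cells are among the libraries compared here, and neither labels nor methods state that the replicates were grown as separate cultures. The p-values therefore measure the spread between these libraries, which may be technical.

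MYC is a transcription factor that binds DNA as a pair with MAX, preferentially at the sequence CACGTG (an E-box), and that drives growth programs such as ribosome production and nucleotide synthesis. In the thymus, T cell precursors first rearrange the beta chain of the T cell receptor and then, as cells that carry both CD4 and CD8, the alpha chain. T-ALL arises from such precursors. The text below asks which genes crossed between absent and expressed within the day, how the surface genes of the cells were altered, and which functions other than ribosome and glycan synthesis moved.

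Total counts ranged from 27050283 to 27102318 per library at 0 h and from 25852711 to 26523917 at 24 h. Levels are CPM, counts divided by the library total after TMM scaling and set to a common total, and 3 counts, the limit that an observed 0 allows, equal 0.121 to 0.124 CPM at 0 h and 0.101 to 0.104 CPM at 24 h on that scale, for counting error only. Of the 24 h libraries, replicate 3 stood apart. Its chi-square over degrees of freedom was 77.7 and 85.4 against the other 24 h libraries, which differed from each other by 2.94, whereas 0 h pairs differed by 2.86 to 5.23. Ribosomal protein genes took 3.58% of its counts, 5.53% and 5.88% in the other 24 h libraries and 10.2% to 10.7% at 0 h. The part of that library in the results was not tested, and the fit was repeated without it.

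The targeted gene followed the labels. The MYC transgene was at 2156, 2098 and 2059 CPM in the 0 h libraries and at 3.48, 3.01 and 3.57 CPM in the 24 h libraries, which left 0.159% of its mean 0 h level (edgeR adjusted p = 1.08e-07, log2 fold change -9.29 with a standard error of 0.131). Of the 11 markers of the T lineage listed for the check (the CD3 and receptor chains, Lck, Thy1, Tcf7 and Bcl11b) 11 had counts in every library, 7 were higher at 24 h and 0 lower. Among all tested genes 22.5% were higher and 24.3% lower. Trbc1, called higher, averaged 0.275 CPM at 0 h, under the low-count filter's level of 0.373 CPM, so its direction is close to fixed. Of the markers of other blood cells 6 of 12 myeloid, 3 of 10 B cell and 6 of 10 red cell and megakaryocyte markers had no count in any of the 6 libraries, among them Lyz2, S100a8, Ms4a1, Cd79b, Pax5 and Hbb-bs. Ighm, Vpreb1, Itgam and Csf1r did have counts and are described with the other markers below.

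Of 13880 genes that passed the low-count filter, 3119 (22.5%) were higher and 3376 (24.3%) lower at 24 h than at 0 h, at an adjusted p under 0.01 in edgeR's quasi-likelihood test of these 6 libraries, and 46.8% of the tested genes were called in either direction. More than 2-fold differences were fitted for 1798 of the higher and 1778 of the lower genes, and more than 8-fold differences for 207 and 126. Without 24 h replicate 3, 4914 genes (34.9% of those tested) were higher and 4915 (34.9%) lower, and 6491 of the 6495 genes called with all 6 libraries were called in the same direction. Leaving out a 0 h library instead gave 1971 (replicate 1), 1884 (replicate 2) or 1900 (replicate 3) higher genes. On unscaled library totals 4959 genes were higher and 2269 lower, so that 68.6% of the called genes were higher in place of 48.0%, and the log2 fold changes moved up by a median of 0.30. All directions below are relative to the TMM scale, on which the median log2 fold change of the tested genes was 0.04.

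**Figure D1:**
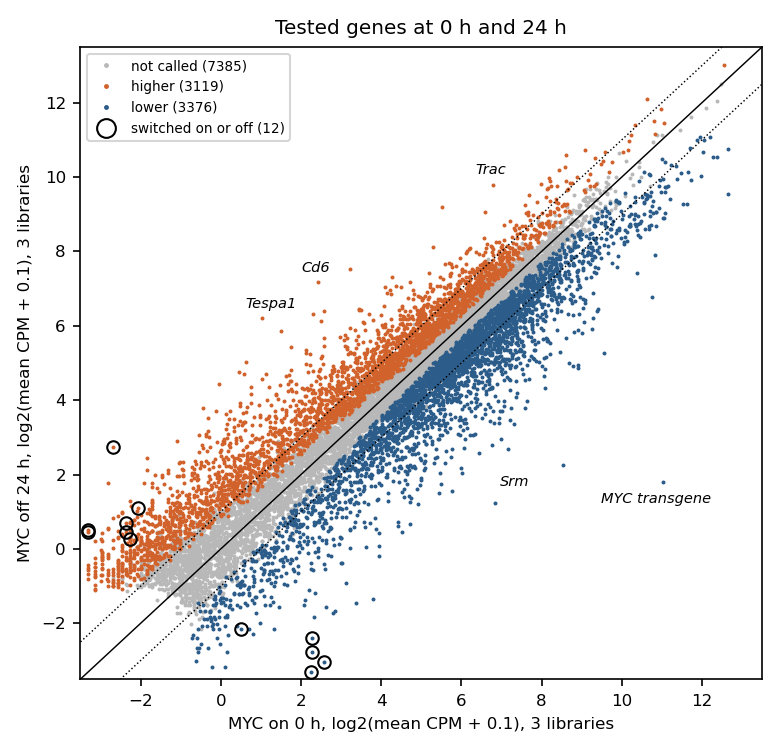
Mean level of each of the 13880 tested genes at 0 h (horizontal axis) and at 24 h (vertical axis), both as log2 of the mean CPM of 3 libraries plus 0.1, with the solid line at equal levels and dotted lines at 2-fold. The 3119 higher genes (orange) and 3376 lower genes (blue) lie on both sides of the line over the whole range of levels, the MYC transgene lies farthest below it, and the 12 circled genes are those that switched between absent and expressed.

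Very few protein-coding genes crossed between absent and expressed. A gene was counted as switched if it was under 0.2 CPM in each library of one group and at 1 CPM or more in each library of the other, a description by level for which no test is given. Of 21866 protein-coding genes, 9942 were expressed in every 0 h library and 10104 in every 24 h library, 9784 of them in both. At both times 9913 genes were under 0.2 CPM in all 3 libraries. Only 7 genes switched on and 5 switched off by this rule, which is 0.0671% of the 10431 genes absent at 0 h and 0.0503% of the 9942 genes expressed there. With 0.5 CPM as the limit of absence 60 genes switched on and 25 switched off, with 0.1 CPM 3 and 3, and with the authors' TPM in place of CPM 14 and 6. On unscaled totals 16 switched on and 4 off, and with 2 CPM as the limit of expression 1 switched on and 4 off. Without 0 h replicate 1 or replicate 3, 11 genes switched on, and without 24 h replicate 2, 8 switched off.

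The gene with the highest level among those switched on was Eno2, the neuronal isoform of the glycolytic enzyme enolase. Its levels were 0, 0.0827 and 0.0826 CPM at 0 h and 6.16, 7.93 and 5.73 CPM at 24 h. Raet1d, a ligand of the NK cell receptor NKG2D, went from 0.0809, 0.165 and 0.165 to 2.10, 1.87 and 2.16 CPM. Lag3, an inhibitory receptor of T cells that binds MHC class II, was at 0.162, 0 and 0.165 CPM at 0 h and at 1.10, 1.00 and 1.18 CPM at 24 h, which puts 1 of its libraries close to the 1 CPM limit. Gimap6, a GTPase of the lymphocyte GIMAP family, had no count in any 0 h library and was at 1.24, 1.63 and 1.11 CPM at 24 h, at least 10.8-fold higher if 3 counts per library are taken as the floor. Vmn2r84, annotated as a vomeronasal receptor, likewise had no count at 0 h and was at 1.24, 1.14 and 1.42 CPM at 24 h, at least 10.3-fold higher on the same floor. The other two were Kcnh5, a voltage-gated potassium channel, at 0.0809, 0.124 and 0.0826 and 1.21, 1.59 and 1.01 CPM, and 1700020D05Rik, at 0.0809, 0.124 and 0.0826 and 1.41, 1.00 and 2.12 CPM. Eno2 at 7.93 CPM was the highest value reached by any of the 7, so that switching on meant a low level of RNA. Just outside the rule were Rgs4, at most 0.202 CPM at 0 h and at least 1.38 CPM at 24 h, and Ggn, at most 0.202 and at least 1.27 CPM.

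The 5 genes that switched off encode a membrane protein, a Wnt receptor, a pair of secreted factors and a tetratricopeptide repeat protein. Ttc39a, the last of these, fell from 5.38, 6.33 and 5.82 CPM to 0, 0 and 0.0674 CPM. Fzd9, a Frizzled receptor of Wnt ligands, was at 4.57, 4.38 and 5.24 CPM at 0 h and at 0.0689, 0 and 0.0674 CPM at 24 h. Nkain1, which interacts with the sodium pump, was at 4.98, 5.00 and 3.92 CPM at 0 h and had no count at 24 h, at least 45.1-fold lower with 3 counts per library as the floor. In these 3 genes at least 1 library of the 24 h group held no count at all. Egfl7, a secreted factor of endothelial cells, was at 4.85, 4.92 and 4.54 and then 0.172, 0.0693 and 0.0337 CPM, and Tgfb2, a TGF-beta ligand, at 1.497, 1.41 and 1.03 and 0.172, 0.173 and 0.0337 CPM. Egfl7 and Tgfb2 overlap genes on the other strand, and no source used here states if counting was by strand, so reads of either strand may enter their counts. Just outside the rule were Cyp2c55, at least 1.156 CPM at 0 h and at most 0.208 CPM at 24 h, and Gnat2, at least 4.29 and at most 0.241 CPM.

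**Figure D2:**
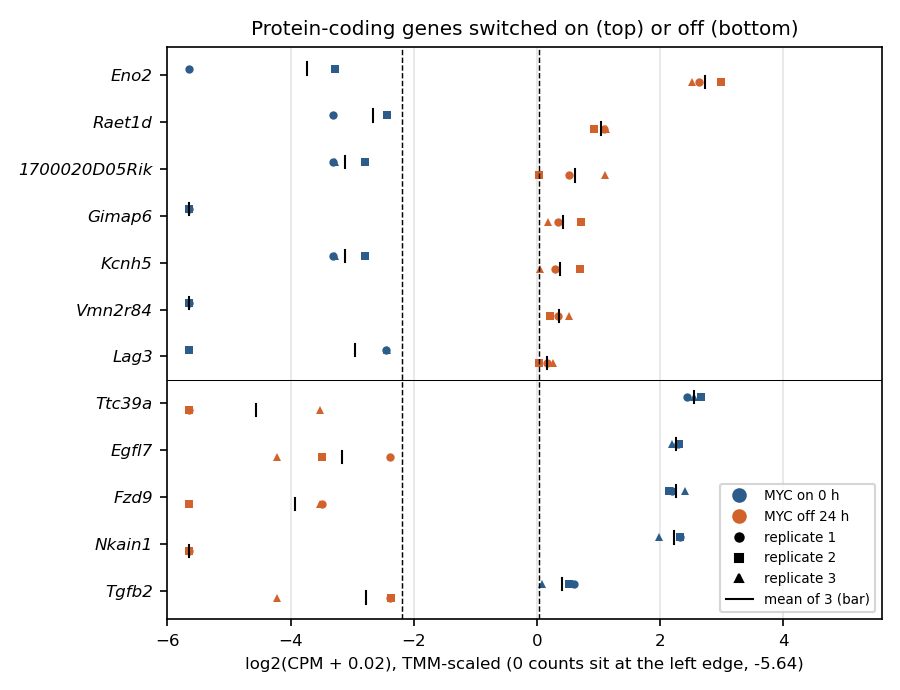
Levels of the 7 protein-coding genes switched on (upper block) and the 5 switched off (lower block) as log2 of CPM plus 0.02, with 0 h libraries in blue, 24 h libraries in orange, replicates by symbol, bars at the log2 of the group means plus 0.02, and dashed lines at 0.2 and 1 CPM. Every library of the absent group lies left of the first line and every library of the expressed group at or right of the second, with Eno2 the highest of the genes switched on.

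Libraries of the 2 h and 8 h time points, which the rule did not use, give a separate reading of these genes. Between 2 h and 8 h 3556 of 13676 tested genes (26.0%) rose and 3785 (27.7%) fell at an adjusted p under 0.01 in edgeR. All 5 switched-off genes were among those that fell, with log2 fold changes of -6.44 for Nkain1, -5.18 for Ttc39a, -4.86 for Fzd9, -3.46 for Egfl7 and -1.65 for Tgfb2. Most of the loss of Fzd9 came before that: its mean on the scale of all 15 libraries was 0.502 CPM at 2 h, 0.0385 CPM at 4 h and 0.0122 CPM at 8 h. Of the 7 switched-on genes 4 could be tested between 2 h and 8 h, all 4 had a positive fold change and 0 were called. Eno2 was still at a mean of 0.551 CPM at 8 h (edgeR adjusted p = 0.354, log2 fold change from 2 h 0.38) and Gimap6 at 0.0631 CPM. Raet1d was already at 0.593 CPM at 2 h and Kcnh5 at 0.604 CPM. The genes that went silent had thus fallen between 2 h and 8 h, with Tgfb2 still at a mean of 0.672 CPM at 8 h. No change over those hours was called among the 4 testable genes that became expressed. The other switched-on genes could not be tested, so the sets are not compared on equal terms.

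Of the 5 switched-off genes 3 hold the E-box CACGTG in the 250 bases before their RefSeq start, and the stretches are shown. Whether MYC bound there was not tested. The sequences are RefSeq promoters on GRCm38.p6, written 5′ to 3′ on the strand of the gene, with CACGTG in capitals, which reads the same on both strands.
Fzd9, minus strand, chr5:135251048-135251297: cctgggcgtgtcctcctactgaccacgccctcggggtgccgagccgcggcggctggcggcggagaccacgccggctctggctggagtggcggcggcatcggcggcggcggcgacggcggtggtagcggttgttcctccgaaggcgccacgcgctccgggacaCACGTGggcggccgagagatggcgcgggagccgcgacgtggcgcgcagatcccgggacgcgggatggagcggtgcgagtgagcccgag
Nkain1, minus strand, chr4:130574037-130574286: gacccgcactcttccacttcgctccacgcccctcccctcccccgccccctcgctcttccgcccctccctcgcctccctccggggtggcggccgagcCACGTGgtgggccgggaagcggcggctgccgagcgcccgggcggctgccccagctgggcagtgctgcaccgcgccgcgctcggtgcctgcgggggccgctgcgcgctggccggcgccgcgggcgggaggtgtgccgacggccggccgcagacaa
Tgfb2, minus strand, chr1:186705990-186706239: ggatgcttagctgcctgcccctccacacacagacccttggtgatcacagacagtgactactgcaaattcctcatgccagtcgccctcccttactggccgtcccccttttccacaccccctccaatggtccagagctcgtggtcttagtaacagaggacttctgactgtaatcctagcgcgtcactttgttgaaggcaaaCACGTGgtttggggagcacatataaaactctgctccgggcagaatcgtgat
Counted from the RefSeq start, the motif begins at -88 in Fzd9, at -154 in Nkain1 and at -51 in Tgfb2, so it lies at a different distance in each. In the annotation used for the counts Fzd9 starts further upstream, and there the motif lies inside the gene, 95 bases after its start, whereas it stays before the start of Nkain1 (-17) and of Tgfb2 (-51). Ttc39a and Egfl7 also had promoters in the table, without the motif. In the 300 bases from 250 before to 50 after the start, 8.09% of the genes in the RefSeq table (2187 of 27025) held CACGTG. The share was 16.6% of the 2416 lower genes with a promoter, 8.48% of the 2112 higher genes and 10.8% of the 4843 genes not called. Among genes lower by a log2 fold change beyond -2 it was 23.8% (80 of 336), and among those higher by more than 2 it was 5.85% (19 of 325). The shares are descriptions, since promoters differ in base composition and genes are not independent.

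For all 7 genes switched on the nearest tested gene had been called higher, beside 22.5% of all tested genes. For 2 of the 5 switched off, Nkain1 and Tgfb2, the nearest tested gene had been called lower, beside 24.3%. Beside Ttc39a, Egfl7 and Fzd9 the nearest tested gene was not called, with Rnf11 at 34.3 and 44.5 CPM, Notch1 at 1.34 and 3.50 CPM and Baz1b at 380.6 and 397 CPM. Without 24 h replicate 3 Rnf11 and Notch1 were called higher. Vmn2r84 (chromosome 10, 130377925 to 130394332, minus strand) lies 13814 bases beyond the end of Tespa1 (130322870 to 130364111, plus strand), which had the largest rise among the genes ranked below. Raet1d overlaps Raet1e, which went from a mean of 0.124 to 1.60 CPM. 1700020D05Rik lies within Snx32, which went from 0.397 to 4.91 CPM, and Eno2 lies 190 bases from Lrrc23, which went from 0.219 to 1.42 CPM. Raet1e, Snx32 and Lrrc23 were all called higher, as was Gimap4 beside Gimap6 (0.164 to 0.652 CPM). On the unscaled totals on which the low-count filter's level of 0.373 CPM is set, the 0 h means of Raet1e, Lrrc23, Gimap4 and Snx32 lay under it. That of Snx32 lay close to it. Genes under that level at 0 h passed the filter through their 24 h level, so their direction is close to fixed. On chromosome 3 Asb17 and its antisense transcript Asb17os fell together, Asb17 from a mean of 6.90 to 0.206 CPM and Asb17os from 2.41 to 0.126 CPM. Raet1d and Raet1e lie on the same strand, as do 1700020D05Rik and Snx32, so strand cannot separate the reads of these pairs, and Asb17 and Asb17os lie on opposite strands, with no strand setting stated. Outside the protein-coding genes 9 features switched on and 1, Asb17os, switched off. Of the 9, 3 were variable segments of the T cell receptor alpha and delta locus (Trav12-3, Trav9-4 and Trdv2-2).

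**Figure D3:**
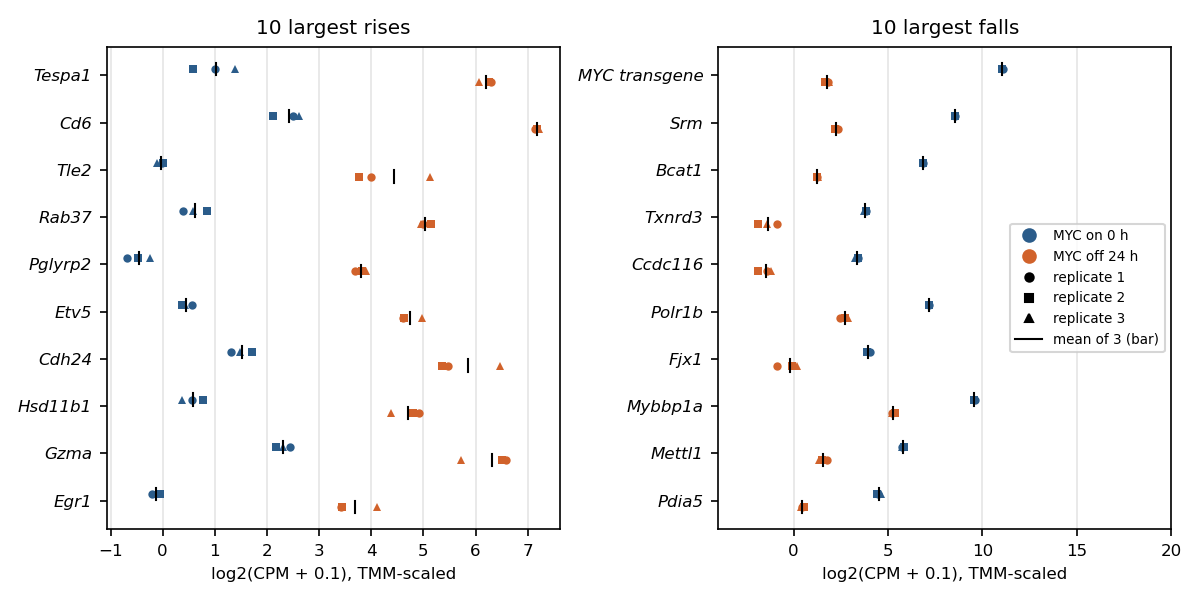
Levels of the 10 protein-coding genes with the largest rises (left) and the largest falls (right) as log2 of CPM plus 0.1, with 0 h libraries in blue, 24 h libraries in orange, replicates by symbol and bars at the log2 of the group means plus 0.1. The genes were ranked only where the libraries of the groups lay apart, and 24 h replicate 3 is farthest from the other 24 h libraries in Tle2, Cdh24 and Gzma.

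The largest rises were those of Tespa1 and Cd6. Genes were ranked if their libraries did not overlap between groups, which held for 70.9% of all tested genes, and if the higher group averaged 10 CPM or more. Tespa1, which is needed for signaling from the receptor in thymocytes, rose most. It was at 1.90, 1.41 and 2.52 CPM at 0 h and at 78.0, 76.3 and 66.9 CPM at 24 h (log2 fold change 5.24, standard error 0.191). Cd6, a scavenger receptor that tunes the receptor signal, rose from 5.54, 4.26 and 6.03 CPM to 141, 145 and 149.6 CPM (4.78 ± 0.14 on the log2 scale). Egr1, a transcription factor induced by receptor signals, rose from 0.769, 0.869 and 0.826 to 10.6, 10.8 and 17.2 CPM. Gzma, the granzyme of cytotoxic lymphocytes, went from 5.30, 4.38 and 4.87 to 96.1, 90.4 and 52.8 CPM, lowest in 24 h replicate 3.

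The other 6 of the 10 rises were in Tle2, Rab37, Pglyrp2, Etv5, Cdh24 and Hsd11b1. Tle2, a Groucho corepressor, rose from 0.890, 0.910 and 0.826 to 15.9, 13.6 and 34.8 CPM and Cdh24, a cadherin, from 2.39, 3.18 and 2.68 to 44.0, 40.6 and 88.6 CPM, both highest in 24 h replicate 3. Without that library their log2 fold changes were 4.07 and 3.95 rather than 4.61 and 4.39. Rab37, a GTPase of secretory vesicles, reached a mean of 32.6 CPM from 1.44, Hsd11b1, which activates glucocorticoids, 26.1 from 1.40, Pglyrp2, a peptidoglycan amidase, 13.9 from 0.630, and Etv5, an ETS factor, 26.8 from 1.27 CPM. Between 2 h and 8 h 9 of the 10 genes rose as well. Etv5 was the exception and fell over those hours (edgeR adjusted p = 0.00167, log2 fold change -0.43), from a mean of 8.46 CPM at 2 h. Tle2, Rab37, Pglyrp2, Cdh24 and Hsd11b1 overlap genes on the other strand, so their counts may hold reads of either.

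The largest falls after the MYC transgene were those of Srm and Bcat1. Srm, which makes spermidine, was at 368, 368 and 369 CPM at 0 h and 4.99, 4.54 and 4.48 CPM at 24 h, and Bcat1, the cytosolic transaminase of branched-chain amino acids, at 114, 115 and 114 and 2.24, 2.22 and 2.36 CPM. Both were almost identical across the libraries of a group. Polr1b, the second-largest subunit of RNA polymerase I, fell from 142, 144 and 141 to 5.37, 6.48 and 7.28 CPM and Mybbp1a, a nucleolar protein, from 772, 745 and 759.8 to 36.7, 41.5 and 37.1 CPM. Mettl1, a tRNA methyltransferase, fell from a mean of 54.5 to 2.82 CPM, Txnrd3, a thioredoxin reductase, from 13.8 to 0.297, Pdia5, a disulfide isomerase of the endoplasmic reticulum, from 22.8 to 1.27, Fjx1 from 15.4 to 0.775 and Ccdc116 from 10.3 to 0.262 CPM. Between 2 h and 8 h all 10 genes of this group fell. Txnrd3 and Ccdc116 came close to switching off, with 0.448 and 0.337 CPM as their highest 24 h values. Bcat1, Mybbp1a, Mettl1 and Ccdc116 overlap genes on the other strand. In 2 of the 7 genes of this group with a RefSeq promoter the E-box lies just after the RefSeq start, and the stretch around it is shown on GRCm38.p6 with CACGTG in capitals.
Mettl1, plus strand, chr10:127041950-127041979: agctcggctctcCACGTGgactgcgtggca
Mybbp1a, plus strand, chr11:72441355-72441376: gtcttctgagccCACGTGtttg
Counted from the RefSeq start as base 1, the motif begins at base 31 in Mettl1 and at base 41 in Mybbp1a. From the start in the annotation used for the counts it lies 548 bases on in Mettl1 and 12 bases on in Mybbp1a. None of the 6 genes among the 10 largest rises with a promoter in the table, and none of the 6 switched-on genes with one, held it. Sets of 6 are too small to read this against the 8.48% of all higher genes with a promoter.

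For the surface genes and functions the tested members of each list were counted by direction, beside 22.5% higher and 24.3% lower among all tested genes. The range in parentheses after a count is that of the 6 fits that each left out 1 library, and the libraries whose loss moved the count by more than 1.5 times are named with it. The low-count filter asked for 0.373 CPM on unscaled totals in 3 libraries, and 1089 of the 13880 tested genes reached it in all libraries of 24 h but not of 0 h, 253 the other way round. Such genes passed through the group where they were high, so their direction is close to fixed. Where a list had 3 or more of them, the count over members that reached the level in all 6 libraries is given too, beside 20.8% higher and 26.2% lower among the 12384 such genes. Among the higher genes named below, Cd69, Ccr9, Lag3, Cd1d2, Nlrc5, Tbx21, Isg15, Usp18, Bcl2 and Eno2 averaged under that level at 0 h, so their direction is close to fixed. A named gene can also average over the level and still miss it in a 0 h library, as Vpreb1 did. Of the genes named below, Slc7a11, Itga9, Cd226 and Pdgfrb lost the call in 5 of the 6 fits without a library, Itga4, Ly9, Mxi1 and Vpreb1 in 4, Il1rap in 3, Nlrc5, Rag2 and Usp18 in 2, and Mki67 and Ptger4 in 1.

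Genes of the T cell receptor complex and its coreceptors were higher in 13 of 17 (11 to 16), with a median log2 fold change of 0.73, and lower in 0. Trac, the constant segment of the alpha chain, rose from 112, 102 and 115 CPM to 949, 899.5 and 825 CPM (log2 fold change 3.02, standard error 0.0988), and Trbc2, that of the beta chain, from 1513, 1589.8 and 1652 to 4691, 4646 and 3861 CPM (1.47 ± 0.112). Alpha chain RNA thus rose by more than beta chain RNA, 8.13-fold against 2.78-fold in the means, a difference between genes that was not tested. Cd5, the partner of Cd6 in tuning the receptor, rose from 6.51, 5.75 and 5.201 to 79.5, 81.8 and 93.0 CPM, and Cd2, an adhesion receptor, from 3.52, 3.60 and 3.63 to 25.4, 23.2 and 16.4 CPM.

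The coreceptors moved less. Cd8a was at 765, 762 and 783 CPM at 0 h and 1679.7, 1663 and 1571 CPM at 24 h, Cd8b1 at a mean of 1039 and then 1634 CPM, and Cd4 at 871, 877 and 849 and then 1319, 1262 and 1514 CPM. The cells thus had RNA of both coreceptors at both times, and more of each after a day. Cd28, the costimulatory receptor, rose from 251 to 417 CPM, Thy1 from 1775 to 2932 CPM and Cd247, the zeta chain, from 184 to 274 CPM. The other CD3 chains did not pass the test: Cd3e was at 260.0 ± 8.44 and 309 ± 21.6 CPM (SD, n = 3 libraries each), Cd3d at 176 ± 11.9 and 276 ± 78.7 CPM, and Cd3g at 233 ± 7.28 and 249.8 ± 21.7 CPM. Cd3d differed most between the 24 h libraries, with 311, 331 and 186 CPM, and all 3 chains passed the test without replicate 3 (log2 fold changes 0.20, 0.87 and 0.17). Ptcra, the pre-receptor alpha chain of earlier thymocytes, was low and not called, at 1.60 and 0.881 CPM.

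Few variable and joining segments of the receptor had enough counts at 0 h to be compared. Of 194 V and J segments of the alpha and delta locus 47 could be tested, and 42 of these reached the filter's level only at 24 h, so that their direction is no result. The 5 that reached it in all 6 libraries were higher. Of 49 segments of the beta locus 8 could be tested, and the 6 that reached the level in all libraries were higher. The segments named here were chosen after their values were seen, as those with the most counts. In the beta locus the RNA was concentrated on few segments: Trbv31 rose from 373, 377 and 429 to 1042, 1011 and 791 CPM and Trbv23 from 246, 247 and 272 to 1009, 1004 and 694 CPM. Trbv31 held 58.6% to 59.5% of the counts of the beta V segments at 0 h and 49.0% to 51.7% at 24 h, without regard to segment length. The alpha V segments summed to 13.2 to 13.7 CPM at 0 h and to 102.7 to 111.3 CPM at 24 h, spread over many segments, of which Trav14-1 held the most (4.09, 4.67 and 5.08 CPM at 0 h and 31.8, 32.3 and 28.4 CPM at 24 h). V segments of one family are close in sequence, so reads of one can be counted for another.

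**Figure D4:**
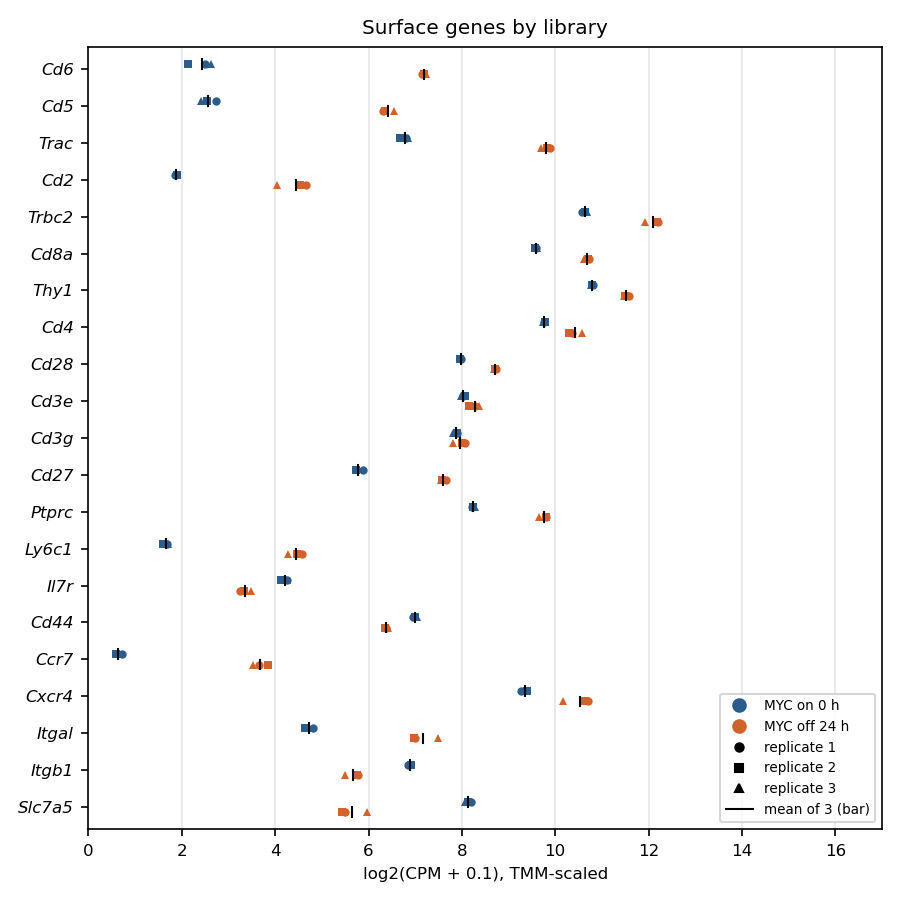
Levels of 21 surface genes in each library as log2 of CPM plus 0.1, with 0 h libraries in blue, 24 h libraries in orange, replicates by symbol and bars at the log2 of the group means plus 0.1. CPM is not corrected for gene length, so levels compare within a gene. Receptor chains, coreceptors and homing receptors lie to the right at 24 h, Cd3g overlaps, and Il7r, Cd44, Itgb1 and Slc7a5 lie to the left.

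Markers of thymocyte and memory stages were higher in 12 of 16 (8 to 14) and lower in 2 (2 in every fit). Ptprc (CD45) rose from 297, 301 and 311 to 890.2, 891 and 805 CPM and Cd27 from 58.5, 53.2 and 52.8 to 202, 189 and 188 CPM. The Ly6 genes rose together from low levels, Ly6c1 from a mean of 3.08 to 21.7 CPM, Ly6d from 1.24 to 9.89 and Ly6c2 from 0.805 to 3.93, and 8 of 9 tested members of the Ly6 family were higher (6 to 8). Cd69, an early activation marker, was at 0.0405, 0.0827 and 0 CPM and then 0.551, 1.07 and 0.708 CPM, which is called but stays near 1 CPM. The recombinase genes Rag1 and Rag2 rose from 573 to 974 CPM and from 34.4 to 52.6 CPM. The terminal transferase gene Dntt was at 1830, 1862 and 1951 CPM at 0 h and 2448, 2490.2 and 1856 CPM at 24 h and not called. The 2 lower genes were Il7r, the receptor chain of a survival cytokine, from 18.9, 17.5 and 18.9 to 9.40, 9.91 and 11.1 CPM, and Cd44, a hyaluronan receptor, from 124, 128 and 132 to 83.0, 81.6 and 85.4 CPM. Il7r had risen between 2 h and 8 h (edgeR adjusted p = 2.1e-08, log2 fold change 0.94), so its 24 h level followed a rise.

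Receptors that guide migration and adhesion moved in both directions. In the list of chemokine, sphingosine phosphate, prostaglandin and P2Y receptors 7 of 13 were higher (7 to 8, and 5 of the 10 at the filter's level throughout) and 1 lower (0 to 2, 0 h replicate 3 and 24 h replicates 1, 2 and 3). Ccr7, which directs cells into lymph nodes, rose from 1.54, 1.41 and 1.40 to 12.5, 14.2 and 11.3 CPM. Ccr9, a receptor of thymus and gut homing, reached 1.36 CPM from 0.315, and S1pr4 7.67 from 2.97 CPM. The prostaglandin receptor Ptger4 fell from 12.04 to 7.28 CPM. Among integrins and selectins 9 of 20 were higher (7 to 11) and 4 lower (2 to 5, 0 h replicates 1, 2 and 3 and 24 h replicate 1). Itgal and Itgb2, the chains of the leukocyte integrin LFA-1, rose from 28.0, 24.8 and 26.0 to 128, 126 and 180.2 CPM and from 13.51, 11.9 and 15.2 to 30.5, 31.0 and 29.0 CPM. Itgb1, the chain shared by receptors of the extracellular matrix, fell from 115, 120.0 and 120.4 to 54.3, 53.7 and 44.8 CPM and Itgb5 from 5.79, 4.80 and 5.12 to 0.861, 0.832 and 1.08 CPM, and Itga4 from 66.3 to 51.9 and Itga9 from 22.2 to 14.4 CPM.

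Receptors of soluble and cell-bound signals rose more often than they fell. Of 34 tested cytokine receptors 18 were higher (13 to 19) and 4 lower (3 to 6). Ifngr1, a chain of the interferon-gamma receptor, rose from 50.2, 51.2 and 54.8 to 225, 217 and 178 CPM, Il4ra from 6.75 to 28.2 CPM, Epor from 2.26 to 7.55 and Acvrl1, a receptor of the TGF-beta family, from 0.683 to 6.13 CPM. Beside Il7r the lower receptors were Lifr (2.24 to 0.559 CPM), Il9r (95.4 to 56.0 CPM) and Il1rap (10.3 to 6.83 CPM). In the TNF receptor superfamily 11 of 16 were higher (8 to 13) and 1 lower (1 to 2, 24 h replicate 3). The death receptor Fas rose from 16.99, 15.9 and 15.9 to 70.9, 74.9 and 48.0 CPM and Tnfrsf18 (GITR) from 5.52 to 16.1 CPM, whereas Tnfrsf8 (CD30) fell from 58.5 to 36.1 CPM.

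Of 18 tested costimulatory and inhibitory receptors and their ligands 12 were higher (8 to 14, and 10 of the 14 at the filter's level throughout) and 1 lower (1 in every fit). Beside Lag3 the inhibitory receptor Vsir (VISTA) rose from 1.29, 1.03 and 1.61 to 7.23, 7.48 and 7.99 CPM and the adhesion receptors Cd96 and Cd226 from 10.3 to 42.1 and from 0.478 to 1.89 CPM. Icos, a costimulator, reached 2.07 from 0.534 CPM. The lower gene was Cd276 (B7-H3), from 5.62, 5.58 and 4.75 to 1.14, 1.35 and 2.19 CPM. In the SLAM family and its adaptors 4 of 6 were higher (3 to 4) and 1 lower (0 to 1, 0 h replicates 1 and 3 and 24 h replicates 1 and 2), among them Slamf1 (3.92 to 15.5 CPM) and Cd84 (19.2 to 63.2 CPM), and Ly9 fell from 25.0 to 17.2 CPM. Of 24 genes of MHC class I and its peptide loading 17 were higher (14 to 18, and 14 of the 21 at the filter's level throughout) and 2 lower (2 in every fit), with a median log2 fold change of 0.95. The largest rises were in Cd1d2, a lipid-presenting CD1 molecule (0.192 to 1.81 CPM), and Nlrc5, the transactivator of class I genes (0.0961 to 0.514 CPM). Both were under the filter's level at 0 h, so that their direction is close to fixed. Next came the loading factors Tapbpl (10.46 to 33.1) and Tapbp (14.98 to 44.3), and Psmb9 of the immunoproteasome (25.0 to 65.6 CPM). H2-T3, the thymus leukemia antigen, fell from 260.0, 262 and 268 to 158, 164 and 148 CPM and the peptidase Erap1 from 82.3 to 53.1 CPM.

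Nutrient transporters were the surface list that went the other way. Of 23 tested amino acid, nucleoside and glucose transporters 16 were lower (15 to 17) and 5 higher (4 to 5), with a median log2 fold change of -1.01. On unscaled totals 12 were lower and 6 higher. Slc7a5 and Slc3a2, the chains of the large neutral amino acid exchanger, fell from 293, 282 and 269 to 45.1, 43.2 and 62.5 CPM and from 258, 255 and 271 to 79.3, 74.0 and 66.6 CPM. Slc29a2, a nucleoside carrier, fell from 8.62, 8.35 and 8.83 to 0.379, 0.312 and 0.607 CPM, and Slc7a1 and Slc1a4, carriers of cationic and of small neutral amino acids, from 185 to 43.7 and from 139 to 31.7 CPM. The higher members were Slc2a1 (GLUT1), from 23.8, 22.05 and 22.6 to 50.7, 55.8 and 52.2 CPM, the lactate exporter Slc16a3, from 26.2 to 84.0, Slc43a2, from 10.3 to 48.9, Slc2a8, from 3.50 to 8.45, and Slc7a11, from 33.8 to 43.3 CPM.

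Ion channels and purinergic receptors were higher in 28 of 68 (18 to 34, 0 h replicates 1, 2 and 3) and lower in 12 (8 to 19, 24 h replicate 3). Of the 61 members at the filter's level throughout 25 were higher and 10 lower. The calcium channel Trpv6 rose from 5.99, 5.13 and 5.70 to 54.3, 53.3 and 103 CPM and the ATP-gated channel P2rx7 from 1.74, 1.36 and 1.65 to 17.5, 17.2 and 18.5 CPM. The calcium channel subunit Cacnb3 rose from 8.76 to 43.2 CPM, and Orai3, a pore of store-operated calcium entry, fell from 43.6 to 9.28 CPM. Among semaphorins, plexins and ephrins 10 of 22 were higher (7 to 11) and 2 lower (1 to 4, 0 h replicates 1 and 2 and 24 h replicates 1, 2 and 3). Ephb6, a kinase-dead ephrin receptor of thymocytes, rose from 99.8, 92.9 and 95.0 to 463, 453 and 679 CPM, whereas Sema5a fell from 321, 315 and 295 to 103, 107 and 152 CPM.

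Within the cell, the signaling chain behind the receptor was higher in 26 of 48 (18 to 34) and lower in 3 (3 to 6, 24 h replicate 3). Beside Tespa1 the kinase Txk rose from 6.39, 5.25 and 6.03 to 49.6, 44.9 and 36.4 CPM, the adaptor Dok2 from 4.05, 4.14 and 4.62 to 31.4, 32.4 and 29.4 CPM and Dgka, which degrades diacylglycerol, from 48.6 to 204 CPM. The lower members were Ubash3a, a phosphatase that restrains the receptor (109 to 19.9 CPM), Csk, the kinase that holds LCK inactive (311 to 178 CPM), and Cd3eap, which despite its name encodes a subunit of RNA polymerase I (60.9 to 11.04 CPM). Transcription factors of the T lineage were higher in 21 of 36 (17 to 24, and 19 of the 33 at the filter's level throughout), with a median log2 fold change of 1.10, and lower in 0 (0 to 3, 24 h replicate 3). Tox, a factor of the CD4 lineage choice, rose from 2.23, 2.48 and 1.156 to 23.4, 22.04 and 24.9 CPM, Bcl6, a repressor, from 11.8, 10.3 and 12.8 to 61.5, 60.4 and 85.7 CPM and Tbx21 (T-bet) from 0.370 to 2.87 CPM. Tox overlaps a gene on the other strand.

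Of the 8 GTPases of the GIMAP family, which support lymphocyte survival, 6 could be tested, and 5 of these reached the filter's level only at 24 h, so that their direction is no result. Gimap9, which reached it throughout, rose from 21.2, 21.8 and 22.8 to 86.9, 88.2 and 60.5 CPM, and the highest of the other 5, Gimap7, reached 3.72 CPM. Interferon-stimulated genes and RNA sensors were higher in 26 of 36 (21 to 26, and 21 of the 30 at the filter's level throughout) and lower in 4 (3 to 5), with a median log2 fold change of 1.31. The RNA sensor Ddx58 (RIG-I) rose from 5.95, 5.58 and 5.41 to 30.6, 31.1 and 46.9 CPM and the nucleic acid sensor Zbp1 from 8.21, 9.18 and 8.21 to 56.0, 57.4 and 48.6 CPM. Isg15 went from a mean of 0.151 to 1.36 CPM and Usp18 from 0.0551 to 0.584 CPM, both from under the filter's level, so that their direction is close to fixed. Trim25, which activates RIG-I, fell from 188 to 106 CPM and Bst2 (tetherin) from 20.7 to 9.11 CPM. Of 10 tested cytotoxic granule genes 5 were higher (3 to 7, 0 h replicates 1, 2 and 3 and 24 h replicate 1) and 1 lower (0 to 1, 0 h replicates 1, 2 and 3 and 24 h replicates 1 and 2), with 5 and 1 of the 8 at the filter's level throughout. The pore-forming Prf1 rose from 1.25, 0.993 and 0.537 to 6.89, 7.76 and 6.30 CPM. Of 15 tested cytokines and chemokines 9 were higher (6 to 10) and 3 lower (3 to 4), and of the 10 at the filter's level throughout 7 were higher and 1 lower. Flt3l, a growth factor of dendritic cells, rose from 1.82 to 14.6 CPM and lymphotoxin beta (Ltb) from 4.38 to 20.1 CPM, and the inflammatory factor Mif fell from 532, 531 and 507 to 94.5, 96.6 and 78.3 CPM.

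The cell cycle lists did not move as one. Cyclins of G1, CDK inhibitors and pocket proteins were higher in 16 of 28 (16 to 19) and lower in 6 (5 to 8). Cdkn1b (p27) rose from 73.7, 70.3 and 73.7 to 276, 289.6 and 239 CPM and Cdkn2d (p19) from 20.1, 20.1 and 21.7 to 143, 152 and 111 CPM, both inhibitors of CDKs. Ccnd2, a D-type cyclin, fell from 30.1, 31.6 and 29.0 to 1.86, 1.73 and 3.00 CPM and its partner Cdk6 from 165, 153 and 140.5 to 29.2, 29.4 and 46.8 CPM, whereas Ccnd3, the D-type cyclin of thymocytes, rose from 394, 393 and 391 to 1459, 1411 and 1794 CPM. Mitosis and spindle genes were higher in 25 of 44 (13 to 35, 0 h replicates 1, 2 and 3) and lower in 0 (0 to 3, 24 h replicate 3), with Mki67, a marker of cycling cells, at 411, 388 and 362 CPM and then 918, 899 and 1889.9 CPM, highest in 24 h replicate 3. DNA replication genes were higher in 9 of 46 (3 to 19, with every left-out library moving the count by over 1.5 times) and lower in 11 (7 to 15, 0 h replicates 1, 2 and 3), and on unscaled totals higher in 21 and lower in 4. Rrm2, the inducible subunit of ribonucleotide reductase, rose from 545 to 1695 CPM, and Pold2, a polymerase delta subunit, fell from 309 to 139.8 CPM. The counts of these lists are relative to the total, so the RNA levels alone do not give the share of dividing cells. In bulk RNA, fewer cells of a type and less RNA per cell cannot be told apart.

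In the MYC network 2 of 9 genes were higher (2 to 3) and 3 lower (2 to 5, 24 h replicate 3). Max, the partner of MYC, fell from 192, 193 and 186 to 89.7, 96.1 and 94.6 CPM and Mga, another partner of MAX, from 142, 141 and 139 to 73.8, 78.3 and 92.1 CPM. The antagonists of MYC moved both ways. Mxi1 fell from 82.0 to 62.0 CPM, whereas Mxd3 and Mxd1 rose from 77.8, 79.4 and 73.4 to 200.03, 211 and 147 CPM and from 5.54, 4.76 and 4.33 to 9.02, 9.25 and 11.97 CPM. In the BCL2 family 6 of 14 were higher (4 to 9) and 3 lower (2 to 4). Bcl2 itself, which blocks cell death, rose from 0.0405, 0.372 and 0.248 to 3.72, 3.60 and 4.32 CPM, and Bax and Bid, which promote it, fell from 38.6, 45.5 and 43.5 to 20.7, 20.996 and 17.1 CPM and from 92.9, 95.0 and 94.4 to 35.2, 34.0 and 33.4 CPM. Bcl2 was under the filter's level at 0 h, so that its direction is close to fixed, and it overlaps a gene on the other strand. Growth restraint genes were higher in 15 of 32 (13 to 20) and lower in 2 (0 to 5, 0 h replicates 1, 2 and 3 and 24 h replicates 1 and 3), with Ddit4, an inhibitor of mTORC1, going from 70.0 to 261 CPM and Txnip, an inhibitor of glucose uptake, from 63.0 to 226 CPM.

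In 4 further lists, of metabolism, folding and respiration, more members were lower than higher, also on unscaled totals. Polyamine, nucleotide and one-carbon synthesis was lower in 34 of 44 (33 to 36) and higher in 2 (0 to 5, 0 h replicates 1, 2 and 3 and 24 h replicate 3), with a median log2 fold change of -1.49. Beside Srm and Bcat1 the serine hydroxymethyltransferase genes Shmt1 and Shmt2 fell from 411, 411 and 424 to 30.1, 33.7 and 32.1 CPM and from 637, 619 and 606 to 71.8, 69.8 and 80.2 CPM, and Mthfd1 from 258 to 29.9 CPM. Heat shock and folding genes were lower in 23 of 28 (22 to 24) and higher in 1 (0 to 3, with every left-out library moving the count by over 1.5 times), led by the mitochondrial chaperones Hspd1 (1732, 1752 and 1682 to 109, 107 and 114 CPM) and Hspa9 (679.9, 685 and 688 to 89.5, 89.4 and 83.5 CPM). Glycolysis was lower in 14 of 25 (8 to 17, 0 h replicates 1, 2 and 3) and higher in 3 (1 to 5, 0 h replicates 1, 2 and 3 and 24 h replicates 1 and 3), and on unscaled totals lower in 8 and higher in 4. Eno1, the main enolase, fell from 1694, 1686 and 1634 to 553, 586 and 508 CPM while Eno2 reached a mean of 6.61 CPM, and Ldha fell from 3229.9 to 1121 CPM. Nuclear genes of the respiratory chain were lower in 32 of 91 (20 to 56, 0 h replicates 2 and 3 and 24 h replicate 3) and higher in 0 (0 to 12, 24 h replicate 3), and on unscaled totals lower in 21 and higher in 4.

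**Figure D5:**
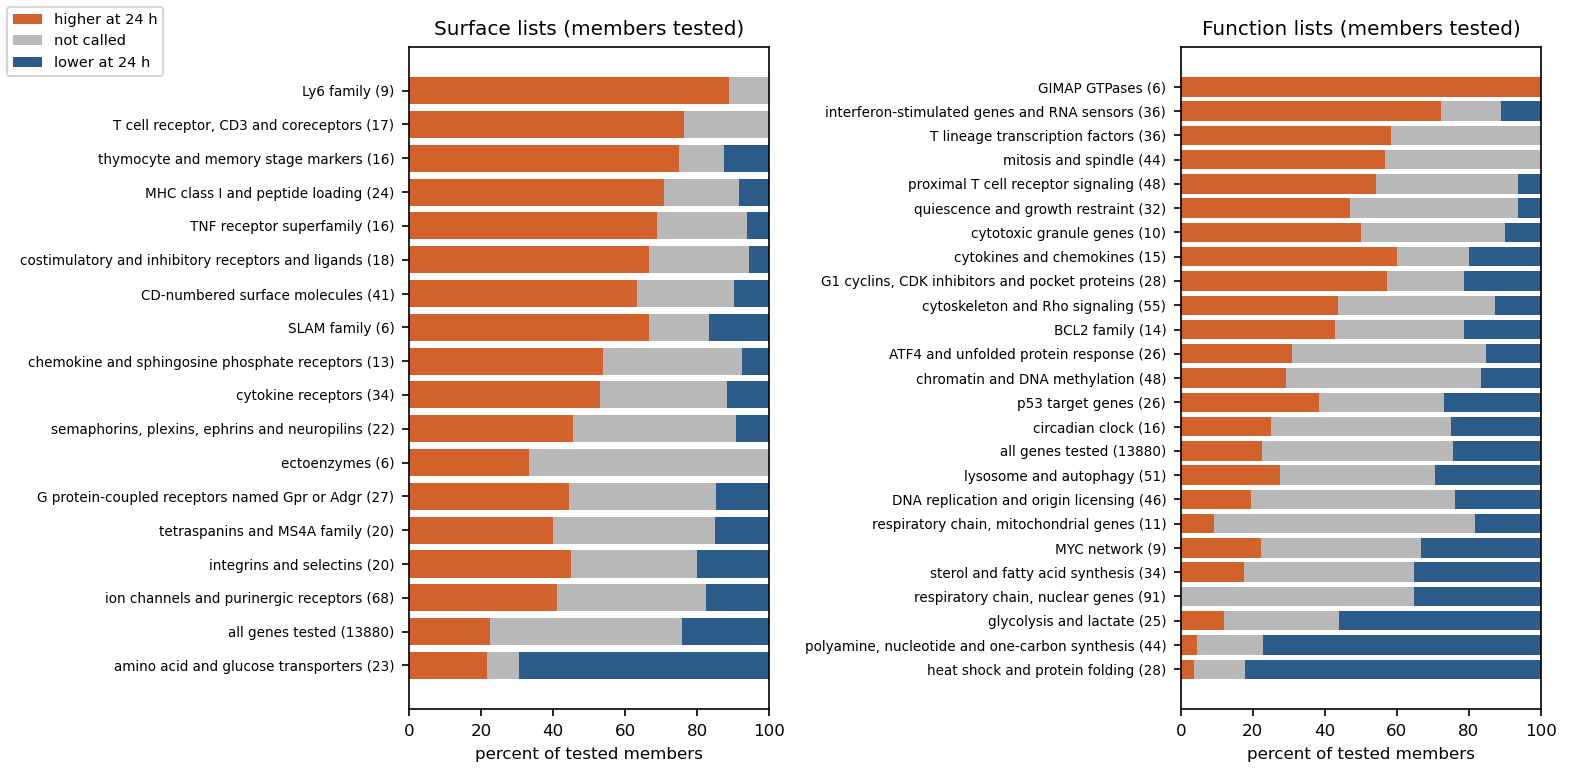
Percent of the tested members of each list that were higher (orange), not called (grey) or lower (blue) at 24 h, at an adjusted p under 0.01, as bars stacked from 0 to 100% for surface lists (left) and function lists (right), with the number tested in parentheses and a bar for all tested genes (22.5% higher, 24.3% lower). GIMAP genes, 5 of 6 tested through their 24 h level alone, and Ly6 and receptor lists stand at the orange end and transporters, heat shock genes and nucleotide synthesis at the blue end.

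Markers of other cell types were read beside these results. The 12 myeloid markers summed to 9.82 to 12.1 CPM at 0 h and 24.6 to 29.7 CPM at 24 h, with 6 of 12 at 0 in all libraries, and the rise lay in Itgam (2.83, 2.40 and 2.81 to 21.001, 19.7 and 22.2 CPM), an integrin chain that some T cells also carry. Csf1r, a growth factor receptor of macrophages, was at 9.18, 9.22 and 7.02 and 5.65, 4.82 and 7.32 CPM and not called. The 10 B cell markers summed to 79.9 to 85.9 and 83.6 to 92.4 CPM, nearly all of it Ighm (83.0 and 85.8 CPM, not called), with 3 of 10 at 0. Vpreb1, a surrogate light chain, rose from 0.445, 0.372 and 0.702 to 1.17, 1.07 and 1.45 CPM. It did not reach the filter's level in every 0 h library, so its direction is close to fixed. Stromal and endothelial markers summed to 58.9 to 62.1 and to 122 to 143.8 CPM, with 6 of 13 at 0, nearly all of it Pecam1 and Pdgfrb. Of the 8 NK and innate lymphoid markers 5 had no count in any library, and of the 2 that were tested and higher 1 reached the filter's level only at 24 h. The sum of these 8 markers was the largest of these lists at both times. It was higher in each 24 h library than in any 0 h library. Red cell and megakaryocyte markers summed to at most 0.248 CPM in any library. Ncr1, Gata2, Cd14 and Itgax, listed as markers of NK, innate lymphoid or myeloid cells, were among the members with no count. The part of the rising markers in the results above was not tested.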

How the data were processed

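RNA of mouse T-ALL cells was sequenced from polyA-enriched libraries. Per the labels, the authors trimmed reads with cutadapt 1.16, aligned them to mm10 with STAR 2.5.4b and counted them per gene with featureCounts without a strand setting stated in the sources used. The deposited files hold whole-number counts for 53380 features, with TPM and FPKM values that the authors derived from them. The counts were tested here, TPM served as an alternative for the switched genes, and FPKM entered no result. Of the features, 53274 identifiers matched an annotated gene and 105 did not.

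The 3 libraries of 24 h and the 3 of 0 h were compared with edgeR 4.0.16 (R 4.3.3; TMM, filterByExpr, quasi-likelihood test, Benjamini-Hochberg adjusted p under 0.01), and 8 h with 2 h likewise. The fit was tested on simulated counts. Alternatives were size factors, library totals, no low-count filter, DESeq2 1.42.0, all 15 libraries, a replicate block and each library left out. A gene was absent under 0.2 CPM and expressed from 1 CPM in each library of a group. Python 3.11.15, pandas 2.3.3 and matplotlib 3.10.9 made the tables and plots.

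Named were the MYC transgene, the 10 largest called rises and falls of protein-coding genes whose groups did not overlap and whose higher group averaged 10 CPM or more, the switched genes and those next to the limits, and per list up to 5 called members each way, or any member of the receptor, stage, MYC network and other-cell lists or of a list with 5 or fewer calls. The comparison, the rule and the 47 lists (1794 genes) were chosen with earlier results of these data known. The name pattern of the cytokine list was corrected after values were seen, to leave out receptors. The single values of 3 listed genes are not reported here. Promoters are RefSeq sequences of GRCm38.p6. Depth was 25852711 to 27102318 counts a library, and floors cover counting error only.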

Additional observations from a re-analysis of the deposited data

How the results depend on the processing

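With unscaled library totals 4959 genes were higher, and with each library left out 1884 to 4914 were higher and 2506 to 4915 lower; the low counts came without a 0 h library and the high ones without 24 h replicate 3. The other alternatives gave counts within 1.5 times: 3094 higher and 3396 lower with RLE size factors, 3107 and 3650 without the low-count filter, 3656 and 3787 with DESeq2, 4443 and 4076 with all 15 libraries. For 8 h against 2 h every alternative stayed within 1.5 times. Genes switched on numbered 3 with absence under 0.1 CPM, 60 under 0.5 CPM, 1 with expression from 2 CPM, 16 on library totals, 14 by TPM and 7 to 11 with a library left out. Genes switched off numbered 3 under 0.1 CPM, 25 under 0.5 CPM and 5 to 8 with a library left out. Beyond the fewer or added libraries, the cause was not tested. The level of 3 counts, 0.121 to 0.124 CPM at 0 h and 0.101 to 0.104 CPM at 24 h, limits what absence means here.

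With the replicate number as a block 2590 genes were higher and 2910 lower at 24 h. Between 2 h and 8 h the block gave 3946 rises and 4091 falls. Among the 181 genes named with a test, 170 were called and 154 of these kept the call under every alternative. The block lost Il1rap, Itga4, Ly9, Mxi1, Pdgfrb and Slc7a11, unscaled totals lost Il1rap, Il9r, Itga4, Itga9, Ly9, Mxi1, Ptger4 and Tnfrsf8, and leaving out a library lost all of these other than Il9r and Tnfrsf8, and also Cd226, Mki67, Nlrc5, Rag2, Usp18 and Vpreb1. Slc7a11 was also lost without the low-count filter. Ighm, Tcf7 and Baz1b, none of them called, changed sign, Ighm at a log2 fold change of -0.00014958 without the low-count filter and Tcf7 at -0.0225 there and at -0.0717 (without 24 h replicate 3) to 0.0856 with a library left out, and Baz1b at -0.0743 (without 24 h replicate 3) to 0.128 with a library left out. Deviations of same-numbered libraries correlated at -0.171, 0.0306 and -0.143, and those of the other pairs at -0.156 to 0.206. With 3 libraries a group, 1 of which stood apart at 24 h, these values cannot decide if same-numbered libraries were paired.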

Other observations

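Further lists, chosen as above, were counted against 22.5% higher and 24.3% lower among all genes, with the range over the fits that each left out 1 library in parentheses. Each lowest count was reached without a 0 h library, for some lists also without 24 h replicate 1 or 2, and each highest without 24 h replicate 3. CD-numbered surface molecules were higher in 26 of 41 tested members (21 to 30) and lower in 4 (3 to 5), with a median log2 fold change of 0.80, and 22 of the 35 at the filter's level throughout were higher. Tetraspanins and MS4A genes were higher in 8 of 20 (4 to 10), which is 4 of the 15 at that level throughout, and lower in 3 (2 to 7). G protein-coupled receptors named Gpr or Adgr were higher in 12 of 27 (7 to 15), which is 7 of the 20 at that level throughout, and lower in 4 (1 to 5, and 1 on unscaled totals). Of 6 tested ectoenzymes 2 were higher, and 1 of 37 NK-type receptors could be tested and was higher.

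Lysosome and autophagy genes were higher in 14 of 51 (7 to 22) and lower in 15 (11 to 20), and on unscaled totals in 22 and 9. Sterol and fatty acid synthesis was higher in 6 of 34 (1 to 9) and lower in 12 (9 to 16), and on unscaled totals in 11 and 6. ATF4 and unfolded protein response genes were higher in 8 of 26 (5 to 15, and 15 on unscaled totals) and lower in 4. Genes of the p53 response were higher in 10 of 26 (7 to 13) and lower in 7 (5 to 8, and 3 on unscaled totals). Chromatin genes were higher in 14 of 48 (6 to 22) and lower in 8 (4 to 15), and on unscaled totals in 23 and 4. Cytoskeleton genes were higher in 24 of 55 (11 to 37) and lower in 7 (4 to 10), and on unscaled totals in 36 and 2. Clock genes were higher in 4 of 16 (3 to 6) and lower in 4 (1 to 7), and on unscaled totals in 7 and 1. Mitochondrially encoded respiratory genes were higher in 1 of 11 (0 to 5) and lower in 2, and on unscaled totals in 4 and 1.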
